A study of Homo sapiens with 4 samples.

Results

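Binding of CEBPB around 10 acute phase genes was described in NCM460 cells, a line established from human colon mucosa. The genes were SAA1, CRP, LBP, C3, SERPINA1, SERPINA3, HP, CP, ORM1 and FGB. A locus was the stretch within 100 kb on either side of the gene's transcription start, and it took in every peak summit and every reproducible region with its midpoint inside that stretch. The 10 loci held 75 of the 80530 summits of replicate 1, 84 of the 104307 summits of replicate 2 and 23 of the 25602 reproducible regions on chromosomes 1 to 22 and X. The study consisted of 2 samples immunoprecipitated with an antibody to CEBPB and 2 input samples, all from NCM460 cells grown in serum-containing medium. No cytokine or other treatment is named for any of them. A single line in a single state was therefore examined, and the 2 ChIP samples are described as independent experiments. The inputs enter only through the background of each peak. RNA was not measured in these samples, so neither the colon identity of the cells nor the expression of the 10 genes could be checked.

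Acute phase proteins are plasma proteins whose output, mainly from the liver, changes during inflammation in response to interleukin 6 and interleukin 1. CEBPB is a basic leucine zipper factor that was also named nuclear factor for interleukin 6 expression, and together with STAT3 and NF-kB it is known for activating acute phase genes in hepatocytes. Epithelial cells outside the liver, those of the gut included, can make several of these proteins locally.

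The results turn on where CEBPB sat relative to the gene starts, and CRP, FGB and SERPINA1 had no summit within 5 kb of the start in either replicate. The nearest lay at 34.4 kb from CRP, at -12.4 kb from FGB and at 6.18 kb from SERPINA1. The RefSeq promoters of CRP and FGB are shown as examples of a promoter far from any summit. They run from 250 bases before the start to 50 after it in build GRCh38.p14. An exact match to the C/EBP core TTGCNNAA, where N is any base, is absent from that of CRP and present in that of FGB. Capitals mark this core, which was searched on both strands like the motifs named below. C/EBP sites that depart from the core were not searched for, so their absence from CRP is not shown.
CRP: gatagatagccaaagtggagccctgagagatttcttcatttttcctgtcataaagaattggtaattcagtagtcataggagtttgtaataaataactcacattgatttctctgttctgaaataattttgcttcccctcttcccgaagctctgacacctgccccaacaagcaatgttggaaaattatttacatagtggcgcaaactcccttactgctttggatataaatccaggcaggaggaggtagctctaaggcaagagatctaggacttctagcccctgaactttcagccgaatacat
FGB: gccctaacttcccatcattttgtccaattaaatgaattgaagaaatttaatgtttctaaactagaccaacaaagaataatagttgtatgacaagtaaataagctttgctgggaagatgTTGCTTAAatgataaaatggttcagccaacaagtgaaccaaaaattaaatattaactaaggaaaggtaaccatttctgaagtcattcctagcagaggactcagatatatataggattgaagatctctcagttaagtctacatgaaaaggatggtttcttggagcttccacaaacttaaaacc
The CRP sequence lies at chr1:159714540-159714839 on the minus strand and the FGB sequence at chr4:154562761-154563060 on the plus strand of that build, which is not the build of the peaks. In FGB the core begins 132 bases before the start (position -132). Promoters of 5 of the 10 genes matched a RefSeq entry (CRP, FGB, ORM1, SERPINA1 and SERPINA3), and FGB alone of these 5 held the core, which 10.5% of all 35116 RefSeq promoters hold. The strict palindrome TTGCGCAA was in none of them, against 0.151% of all promoters. A motif typical of NF-kB, GGGA and CC separated by NNNN, occurred in ORM1 and SERPINA3, against 25.6% of all promoters. TTCNNNGAA, typical of STAT factors, was in none of the 5, against 7.66%, and so was the long HNF1 motif, GTTAAT and ATTAAC separated by N, against 0.0057%. Among 21 other acute phase genes, 14 matched an entry, and 7 of these held the C/EBP core: AHSG, ALB, FGA, HPX, RBP4, SAA4 and TF. Of those 7, AHSG, ALB, RBP4 and TF were listed as negative acute phase genes, whose output falls in inflammation. Counted by promoter, as the 10.5% is, 7 of the 19 promoters of these genes held the core, and 2 of the 7 promoters of the members. Those 2 are the FGB promoters, which overlap and hold the same core, so 1 site is counted there 2 times. A match in these windows is a description of letters only. Those 21 genes were not placed on the peaks, because no hg19 annotation was used here.

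Summits are given by their distance from the gene start, which was known to the nearest kb, so each distance may be off by up to 0.5 kb. Negative distances point to lower coordinates, and regions are named by the distance of their strongest summit in replicate 1. For each summit the deposited lists give a fold enrichment of ChIP over the input-based background. From that fold and the p-value beside it, the number of extended ChIP reads at the summit, called fragments, and the background in expected fragments were worked out. Fragments are counted before, and background after, the scaling of the peak caller, so the fold is not their plain ratio. If the fragment length was the same, the ChIP depth implied by the lists was 1.57 times higher in replicate 2, and the median summit over all chromosomes rested on 24 fragments in replicate 1 and 28 in replicate 2. Intervals below cover counting error only.

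CEBPB was unevenly spread over the 10 loci. CP, which encodes the copper-carrying ferroxidase ceruloplasmin, and C3, the central complement component, together held 13 of the 23 reproducible regions, with 7 at CP and 6 at C3. SAA1 held 3, HP and CRP held 2 each, and ORM1, SERPINA3 and LBP held 1 each. SERPINA1 and FGB held none, and their nearest reproducible regions lay at 210.7 and -780.6 kb. A reproducible region is an interval in the table that the authors deposited from an analysis of irreproducible discovery rate (IDR), a measure of whether the ranks of both replicates match. Its entries all have an IDR of at most 0.05. At least 1 reproducible region was present at 8 of the 10 loci, against 63.5% of the 14036 windows of 200 kb that tile chromosomes 1 to 22 and X, and 2 or more at 5 of the 10, against 43.5% of windows. Of the windows in Giemsa-negative bands, the gene-rich class in which 8 of the 10 loci lie, 71.1% held a region.

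Counted by summits, C3 led with 17 in replicate 1 and 21 in replicate 2. Only 6.01% of all windows held at least 17 summits in replicate 1, and 4.96% held at least 21 in replicate 2. CP followed with 17 and 15, SAA1 with 12 and 15, and ORM1 with 11 and 9. HP had 5 and 7, CRP 3 and 5, LBP 4 and 4, SERPINA3 3 and 2, SERPINA1 2 and 3, and FGB 1 and 3. Over the loci the median was 4.5 summits in replicate 1 and 6 in replicate 2, against medians of 4 and 6 over all windows. Every locus held a summit in each replicate, against 80.9% of windows in replicate 1 and 88.7% in replicate 2. By the median, the acute phase loci as a list were thus near the middle of the genome in number of summits. Their means were higher, at 7.5 in replicate 1 and 8.4 in replicate 2, against 5.71 and 7.39 over all windows. In Giemsa-negative windows the medians were 5 and 7 and the means 6.62 and 8.41. Against these windows, the mean of the loci was higher in replicate 1 only. CP, C3, SAA1, ORM1 and HP stood above the median of all windows in both replicates, HP by 1 summit in each.

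**Figure D1:**
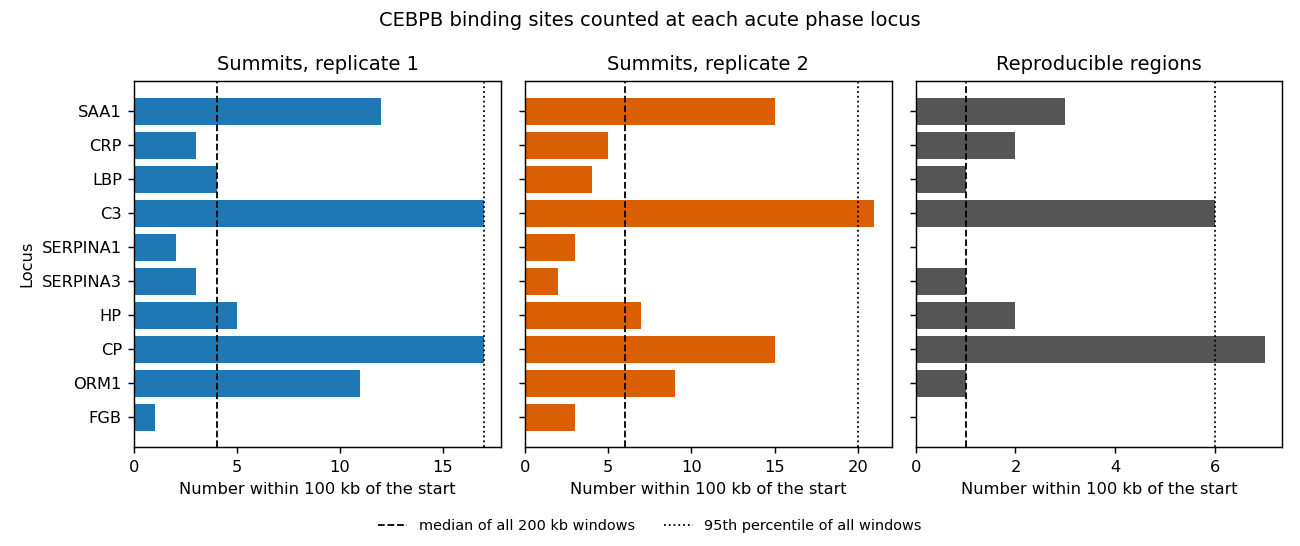
Number of CEBPB summits in replicates 1 and 2 and of reproducible regions (x axes, counts) within 100 kb of each gene start (y axis), as bars from 0. The dashed and dotted lines are the median and the 95th percentile of all 200 kb windows. C3 reaches 17 and 21 summits and CP 7 regions, whereas SERPINA1 and FGB have no region.

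CEBPB summits sat at the gene start itself at 4 loci. SAA1, CP, LBP and C3 had a summit within 1 kb of the start in both replicates. ORM1 and SERPINA3 added a summit within 5 kb in both replicates, and HP in replicate 2 only. The share of all gene starts with a summit this close was not available, because no hg19 annotation was used. Whether these counts are high or low for gene starts was therefore not tested. Of the 23 reproducible regions, 2 had their midpoint within 1 kb of a start (CP and C3), 4 lay between 1 and 5 kb, 2 between 5 and 20 kb, 9 between 20 and 50 kb and 6 between 50 and 100 kb. These bins differ in length, and no comparison with an even spread was made. Of the 23 regions, 16 lay at higher and 7 at lower coordinates than the start. The genes lie on both strands, CRP on the minus and SERPINA3 on the plus strand for example. Higher coordinates are therefore not downstream at every locus.

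**Figure D2:**
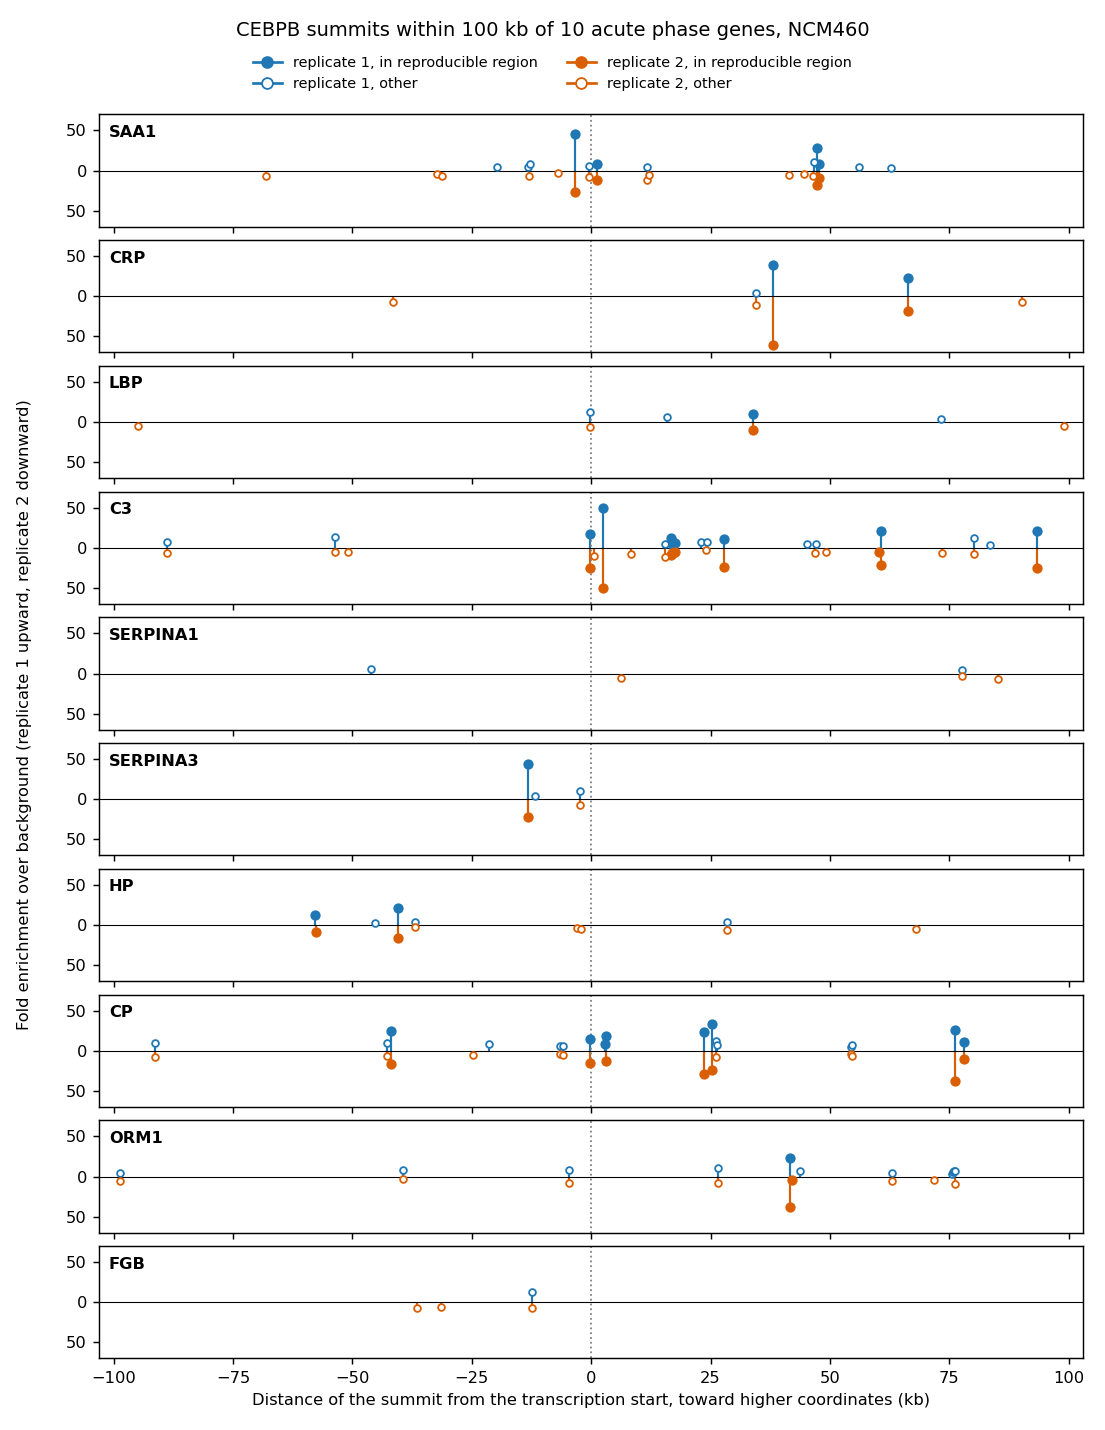
Each panel is a locus and each stem a CEBPB summit, at its distance from the gene start in kb (x axis), with its fold enrichment (y axis) drawn upward for replicate 1 and downward for replicate 2. Filled heads lie in reproducible regions. The tallest stems stand at 2.39 kb from C3 and at 38.1 kb from CRP.

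SAA1 had more CEBPB summits than CRP or LBP and fewer than C3. SAA1 encodes serum amyloid A, an apolipoprotein of high-density lipoprotein that rises steeply in inflammation. Its strongest site, on chromosome 11 at 18284306 to 18284884 in hg19, peaked at -3.31 kb in each replicate. There 148 fragments stood over a background of 2.0 in replicate 1, and 130 fragments over 3.0 in replicate 2. The fold was 46.0 in replicate 1 and 26.2 in replicate 2, a mean of 36.1 ± 14 (SD, n = 2), and the IDR was 1.7e-05. Nearer to the start, a summit at -0.369 kb in replicate 1 and -0.384 kb in replicate 2 had 24 and 25 fragments and folds of 5.81 and 8.46, and it was not in the IDR table. A weak reproducible region followed at 1.31 kb, with 23 and 36 fragments and a mean fold of 9.98 ± 2.35 (SD, n = 2). A further region at 47.4 kb had 90 and 109 fragments and a mean fold of 23.1 ± 6.32 (SD, n = 2), and a second summit at 47.7 kb in replicate 1 and 47.8 kb in replicate 2 lay in the same region. In the gene order of GRCh38, SAA2 and SAA4 border SAA1 on the lower side and HPS5 and GTF2H1 on the higher side. SAA1 and its near-identical copy SAA2 are hard for short reads to tell apart, and the treatment of reads that match both is not stated in the sources used here.

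CRP, the pentraxin C-reactive protein that binds phosphocholine on microbes and dying cells, had no CEBPB summit near its start. The nearest lay at 34.5 kb in replicate 1 and 34.4 kb in replicate 2, with 14 and 44 fragments. The strongest site of the locus, at 38.1 kb, lay on chromosome 1 at 159721831 to 159722540. It carried 209 fragments over a background of 4.0 in replicate 1 and 253 over 2.34 in replicate 2. Its fold was 38.9 in replicate 1 and 60.9 in replicate 2, a mean of 49.9 ± 15.5 (SD, n = 2). That mean ranked 152 among the 25594 reproducible regions with a summit in both lists. A second region at 66.5 kb had 121 and 138 fragments and folds of 22.6 and 18.6. On that side the next genes in order are DUSP23, FCRL6 and SLAMF8, while APCS, which encodes the related pentraxin serum amyloid P, borders CRP on the other side. Toward APCS, the only summit within 100 kb was at -41.6 kb in replicate 2, with 18 fragments, and it had no partner in replicate 1.

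LBP, the plasma protein that hands bacterial lipopolysaccharide to CD14, had a summit at its start but no strong site. That summit, at -0.232 kb in replicate 1 and -0.215 kb in replicate 2, had 26 fragments over the lowest background that the caller assigns in that list, 1.0, and 30 fragments over 3.0. Its folds of 12.5 and 6.25 did not enter the IDR table. The reproducible region of the locus, at 34.0 kb, had 21 and 36 fragments and folds of 9.88 and 9.93. At a mean of 9.90 ± 0.036 (SD, n = 2), it was the weakest of the 23 regions, stronger than only 7.63% of all reproducible regions.

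C3 was the member with the strongest CEBPB binding close to its start. The site at 2.39 kb, on chromosome 19 at 6723063 to 6723883, had 177 fragments over a background of 2.3 in replicate 1 and 189 over 2.03 in replicate 2. Its fold was 50.1 in replicate 1 and 50.2 in replicate 2, a mean of 50.2 ± 0.12 (SD, n = 2). That mean ranked 139 among the 25594 reproducible regions with a summit in both lists. The replicates' summits fell on the same base. A second site sat at the start itself, at -0.214 kb in replicate 1 and -0.215 kb in replicate 2, with 94 and 123 fragments and folds of 17.6 and 24.8. Toward higher coordinates C3 had 4 more reproducible regions. The one at 16.7 kb was 1169 bp long and held 3 summits in replicate 1 and 4 in replicate 2, and those at 27.8 and 60.7 kb had mean folds of 17.5 ± 9.85 and 20.7 ± 0.15 (SD, n = 2 each). At the one at 93.3 kb the fold was 20.4 in replicate 1 and 25.7 in replicate 2. GPR108, TRIP10, SH2D3A and VAV1 follow C3 on that side in the gene order. Toward lower coordinates, beyond the site at the start, no region was reproducible within 100 kb, and the folds of the summits there were between 4.83 and 13.0.

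The 2 serpin genes, with starts 224 kb apart on chromosome 14, had different numbers of strong sites. SERPINA3 encodes alpha-1-antichymotrypsin, an inhibitor of chymotrypsin-like proteases such as cathepsin G. Its CEBPB site at -13.3 kb, at 95065387 to 95065936, had 197 fragments over a background of 3.21 in replicate 1 and 220 over 7.0 in replicate 2. Its fold reached 43.6 in replicate 1 but 22.1 in replicate 2, a mean of 32.8 ± 15.2 (SD, n = 2). A smaller summit at -2.40 kb in both replicates had 22 and 24 fragments and folds of 9.89 and 6.74. No summit was present within 100 kb on the other side of the SERPINA3 start. SERPINA1 encodes alpha-1-antitrypsin, the main plasma inhibitor of neutrophil elastase. It had no reproducible region, and its summits had 11 and 17 fragments in replicate 1 and 9, 14 and 18 in replicate 2. A single pair of these lay within 100 bp, at 77.7 kb in both replicates, with folds of 5.03 and 3.48. The nearest summit to the SERPINA1 start was at -46.2 kb in replicate 1 and 6.18 kb in replicate 2. The SERPINA3 site, at 210.7 kb, was the nearest reproducible region to SERPINA1.

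Among the carriers and scavengers, CP had the most reproducible regions of the 10 loci. Only 3.98% of all windows held at least 7. The regions' summits lay at -41.9, -0.268, 3.14, 23.7, 25.3, 76.1 and 78.1 kb in replicate 1. The site at the start, on chromosome 3 at 148939537 to 148939963, had 47 fragments in replicate 1 and 70 in replicate 2, with a mean fold of 14.6 ± 0.46 (SD, n = 2). The neighbouring site at 3.14 kb was taller in fragments, with 122 and 136, but stood over a background of 5.0 and 8.0 and had a mean fold of 15.6 ± 4.82 (SD, n = 2). The strongest CP sites were farther away: 31.6 ± 7.97 at 76.1 kb, 28.9 ± 6.49 at 25.3 kb and 26.3 ± 3.65 at 23.7 kb (mean fold ± SD, n = 2 each). These means differed by less than the SD of the site at 76.1 kb, so their order is not resolved by 2 replicates. TM4SF18, TM4SF1 and TM4SF4, which encode tetraspanin-like membrane proteins, follow CP on the higher side, and HPS3 borders it on the lower side.

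HP encodes haptoglobin, which binds free hemoglobin. Its nearest summit was at 28.4 kb in replicate 1, and in replicate 2 it had a pair of weak summits at -2.90 and -2.11 kb with 11 and 13 fragments over the lowest background of that list, 1.36. The reproducible regions of the locus lay at -57.7 and -40.6 kb. The second had 60 fragments in replicate 1 and 68 in replicate 2 and a mean fold of 18.8 ± 3.19 (SD, n = 2). The first had 38 and 43 fragments and folds of 12.1 and 8.85. DHODH and PKD1L3 are the next genes on that side. The haptoglobin-related gene HPR, a near copy that borders HP on the higher side, can share reads with it.

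ORM1 encodes orosomucoid, a plasma lipocalin also called alpha-1-acid glycoprotein. The locus held the tallest CEBPB summit of all 10 loci by fragments but only 1 reproducible region. That summit, at 41.6 kb in replicate 1 and 41.7 kb in replicate 2, on chromosome 9 in the region 117126337 to 117127334, had 251 and 278 fragments. Its background of 9.0 in replicate 1 was the highest at any summit of the loci in that replicate, against 4.84 in replicate 2, and the fold was 23.4 in replicate 1 and 38.3 in replicate 2. Near the start a summit at -4.73 kb in replicate 1 and -4.70 kb in replicate 2 had 20 and 48 fragments and folds of 8.22 and 7.88. It was shared by both lists but absent from the IDR table. ORM2, which is nearly identical to ORM1, and then AKNA follow on the higher side, and COL27A1 on the lower side.

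FGB, which encodes the beta chain of fibrinogen, the precursor of the fibrin clot, had the fewest summits in replicate 1. Its single summit there, at -12.4 kb, had 40 fragments over 2.0 and a fold of 12.7. The same site in replicate 2 had 58 fragments over 6.0 and a fold of 6.77. The other summits of the locus were 2 in replicate 2, with 15 and 18 fragments over the floor of 1.36. FGA and FGG, the genes of the other fibrinogen chains, lie next to FGB on the higher side. There no summit was called within 100 kb of the FGB start in either replicate. No peak here means none at the authors' q-value of at most 0.05 and at this depth.

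The 23 regions as a group ranked above the middle of the reproducible regions by fold, at a median percentile of 70.3. Of them, 6 were in the strongest 10% by mean fold, a class that holds 10.0% of all regions: C3 at 2.39 kb, CRP at 38.1 kb, SAA1 at -3.31 kb, SERPINA3 at -13.3 kb, CP at 76.1 kb and ORM1 at 41.6 kb. Each of these came from a different locus, and 2 of the 6 lay within 5 kb of the start. Of the 23, 18 had an IDR of at most 0.01, against 60.6% of all regions. The median region of the loci had 94 fragments in replicate 1 and 123 in replicate 2, against 58 and 76 over all regions, and a median width of 550 bp against 421 bp. The background under them was also higher, at 3.0 expected fragments in each replicate, against 2.14 in replicate 1 and 2.65 in replicate 2. No test was made of these differences, because the genes were chosen with earlier results of these data known.

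More of these regions differed by over 1.5 times between replicates in fold than in fragments. The fold did so at 7 of the 23 regions, against 29.6% of all regions, and the fragments at 2, against 30.4%. The fragments were not adjusted for depth. At the 2, SAA1 at 1.31 kb and LBP at 34.0 kb, replicate 2 had 61.0% and 63.2% of the fragments. The median at regions with a similar number of fragments was 59.6% for both. The 2 of 23 is therefore no measure of how well the replicates matched. At SERPINA3 the fold differed 1.97 times with 197 and 220 fragments, while the background was 2.18 times higher in replicate 2. At C3 at 27.8 kb the fold was 2.33 times higher in replicate 2, with 67 and 77 fragments over backgrounds of 5.0 and 1.56. The fold of replicate 1 was higher at 11 of the regions and that of replicate 2 at 12. Over the 25594 regions with a summit in both lists, these counts were 11635 and 13959. Replicate 2, the deeper sample, had more fragments at 20 of the 23, and at 21927 of those 25594.

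**Figure D3:**
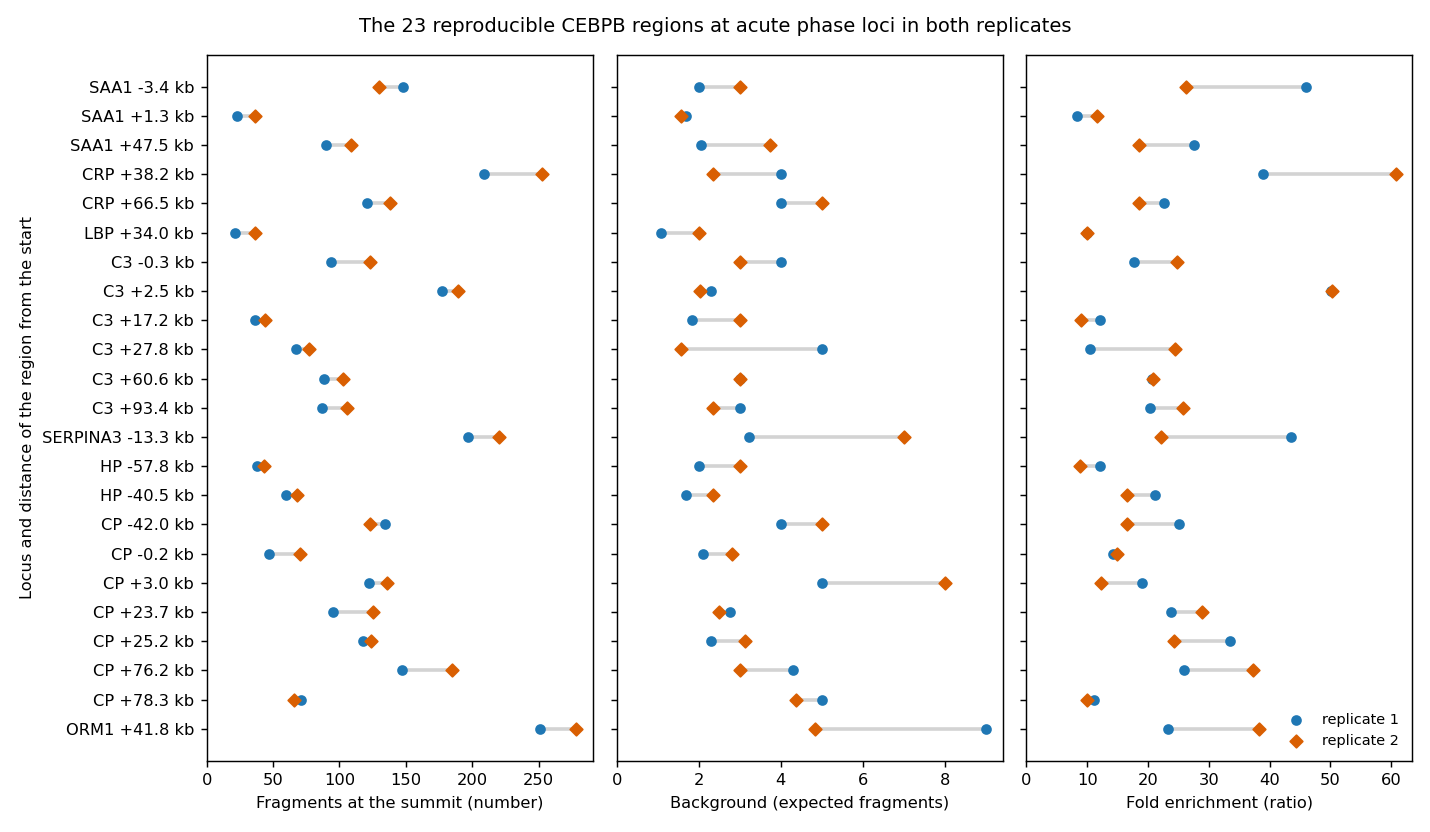
Fragments, background in expected fragments and fold enrichment (x axes) of the 23 reproducible regions, 1 row each with the locus and the distance of its midpoint from the gene start, in replicate 1 (circles) and replicate 2 (diamonds). At SERPINA3 the fragments are 197 and 220 and the folds 43.6 and 22.1.

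To ask whether any region differed between the 2 ChIP libraries beyond counting noise, the part of its fragments that came from replicate 2 was compared with the median for regions with a similar number of fragments. None of the 23 passed a two-sided exact binomial test with Benjamini-Hochberg adjustment over all 25594 regions with a summit in both lists, of which 3.18% passed an adjusted p of 0.05, 1.82% on the side of replicate 1 and 1.36% on the side of replicate 2. At an unadjusted p of at most 0.05 there were 2 of 23, against 16.7% of all. These were SAA1 at -3.31 kb, where replicate 2 had 46.8% of the fragments against 54.7% at similar regions (exact binomial p = 0.0080, adjusted p = 0.12), and CP at -41.9 kb, with 47.9% against 54.9% (exact binomial p = 0.024, adjusted p = 0.21). The smallest adjusted p was thus at SAA1, one of 3 regions with fewer fragments in replicate 2. These tests compare 2 libraries and not conditions, and p-values cover counting error only.

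**Figure D4:**
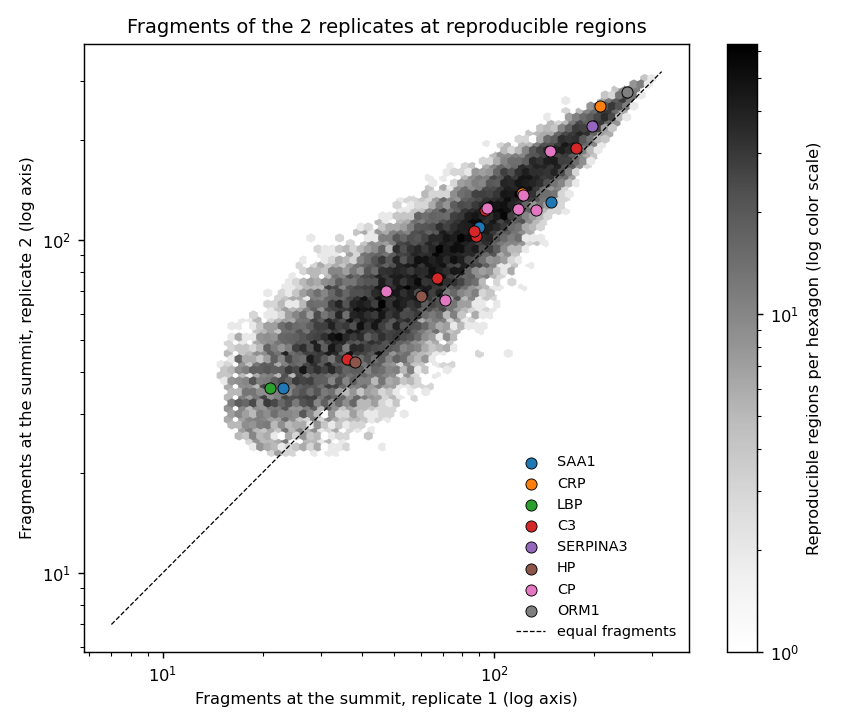
Fragments at the summit in replicate 1 (x axis) and replicate 2 (y axis), both on log axes, for all reproducible regions (grey, darker where more regions fall) and the regions of the acute phase loci (colored points). The dashed line marks equal fragments. The colored points lie inside the grey cloud, and 20 of 23 are above the line, as are 21927 of all 25594 regions drawn.

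Summits outside the reproducible regions made up most of what was called at these loci. In replicate 1, 55 of the 75 summits (73.3%, exact binomial 95% interval 61.9 to 82.9%) had a replicate 2 summit within 100 bp, against 79.0% of all summits. In replicate 2, 55 of the 84 (65.5%, interval 54.3 to 75.5%) had one in replicate 1, against 61.0% of all. Inside reproducible regions lay 27 of 75 summits in replicate 1, or 36.0% against 36.5% of all, and 29 of 84 in replicate 2, or 34.5% against 28.6%. The 20 unpaired summits of replicate 1 had 7 to 44 fragments and a median fold of 5.29, against 9.89 for the paired ones, and over all summits of that replicate the medians were 4.86 and 8.22. The 29 unpaired summits of replicate 2 had 11 to 45 fragments and a median fold of 5.26, against 8.85 for the paired ones, and over all summits they were 5.14 and 8.90. The loci thus showed the same pattern as the whole lists. Of those 29, 11 (37.9%) stood on the background floor, against 26.9% of all unpaired summits of replicate 2. Of the 11, 5 summits, at SAA1, CRP, C3, SERPINA1 and FGB, had the same 18 fragments and the same fold of 6.53. At the window edge, 1 reproducible region lay between 90 and 100 kb of a start (C3 at 93.3 kb), and 1 between 100 and 110 kb (HP at -106.1 kb, with folds of 31.7 and 29.7).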

How the data were processed

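CEBPB and input samples (2 each) were processed on hg19, per the submitters' processing notes, which name Bowtie2 2.3.4, MACS2 2.1.2, SAMtools 1.9 and bedtools 2.25.0, along with FastQC 0.11.7, with no settings. The authors called peaks per ChIP sample. The deposited lists give per summit a score, a fold (ratio) over the local background and the −log10 of a p-value and of a q-value (q at most 0.05), and the authors' deposited table gives a global IDR per entry. Its 27544 entries were merged into distinct regions by interval, and each took the strongest summit of each list inside it. The last 8 columns, which have no header naming the samples, were not used.

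Results are for chromosomes 1 to 22 and X, with positions in hg19 counted from 1. Gene starts to the nearest kb came with the choice of genes. Members and lists were chosen with earlier results of these data known. All regions of the loci are named, with the strongest summit and the summit nearest each start. Fragments were solved from fold and p, assuming that MACS2 adds a pseudocount of 1 to scaled pileup and background and takes a Poisson tail. With scales of 0.927 and 0.800 every summit gave a whole number within 0.005 of the −log10 p. Of 4000 simulated summits per replicate, 100% were recovered. These were simulated under the same assumptions and scales, so their recovery does not check the assumptions about MACS2. The lowest backgrounds were 1.00 and 1.36. The replicate comparison, tested on simulated data with 25594 regions, called 90.5% of 200 regions changed 3-fold and 9 unchanged ones. The simulated counts came from the same binomial model as the test and carry no spread beyond counting error. In the real data 16.7% of regions had an unadjusted exact binomial p of at most 0.05, so the simulated rates may not hold there. Bands of hg19 came from circlize 0.4.16; windows touching centromeric, variable or stalk bands and partial windows at chromosome ends were left out. Computation used SciPy 1.17.1, pandas 2.3.3, NumPy 2.4.6, matplotlib 3.10.9 and Python 3.11.15. Total reads, duplicate removal, the settings of the IDR analysis and which input served which ChIP sample are not given in the sources that were used here. The intervals (95%, exact Clopper-Pearson) cover counting error only. Alternatives changed the window, the gene starts, the pairing distance, the q and IDR thresholds and the ranking.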

Additional observations from a re-analysis of the deposited data

How the results depend on the processing

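Of 41 alternative settings, 32 gave values within the limits set for each result (1.5 times for counts), and 9 moved them. A window of 200 kb gave 164 summits in replicate 1, 178 in replicate 2 and 47 reproducible regions, since it covers more of the genome. The 23 regions became 54 when pairs of summits were counted, each at q 0.01 or lower, a rule that asks for no match of rank. The median percentile of 70.3 became 75.4 when ranked by −log10 p, 76.9 by fragments and 61.4 within regions at an IDR of at most 0.01, where the comparison is with stronger regions. The 813 regions of the genome that differed between replicates became 435 when the test was limited to an IDR of 0.01, with fewer regions tested, and none of the loci's regions was called in any setting. The strict core TTGCGCAA was found in 0 promoters of the members. A search for the core with a mismatch allowed was not run. Moving every start by 0.5 kb left 75 and 84 summits and 23 regions. A region was present at 7 to 8 loci under the window and IDR alternatives. Leaving out a replicate gave a summit at 10 of 10 loci and median percentiles of 69.3 to 71.5. No paired analysis was possible because no result compares ChIP with input samples by a test, and the lists use input only as background.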
